A study of Homo sapiens with 24 samples.

Results

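The genes described here are the human translation initiation factors and the kinases and binding proteins that regulate them. The set was taken from the platform annotation as every gene with its own symbol that begins with EIF1, EIF2, EIF3, EIF4, EIF5 or EIF6. Pseudogenes, Y-linked genes and 1 eIF4E-binding protein were left out by the rule, and the brightest probe set stood for each gene. The rule used no measured difference. It gave 48 of the 18274 genes tested. They comprise 4 eIF2 kinases, 4 eIF2 subunit genes, 5 eIF2B subunits, 2 alternative carriers of initiator tRNA, 8 factors of scanning and subunit joining, 12 eIF3 subunits, 10 genes of cap binding and the eIF4F helicase, and 2 inhibitors of eIF4E. The last is EIF3J-DT, a non-coding transcript beside EIF3J. The groups hold relatives too, so not every gene does the work its group is named for. EIF1AD and EIF5A2 are counted among the scanning and joining factors, and EIF4A3 with eIF4F.

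RNA came from Huh7.5.1, a human hepatoma cell line that is widely used as a host for hepatitis C virus. All samples carry the word novirus in their titles, and the cells had been given silymarin, a flavonolignan mixture from milk thistle, or only DMSO, in which it is dissolved. There were 4 arrays of DMSO at 4 h, 4 of silymarin at 4 h, 5 of DMSO at 8 h, 3 of silymarin at 8 h, 5 of DMSO at 24 h and 3 of silymarin at 24 h. Each array was an Affymetrix Human Gene 1.0 ST array of 1 sample. The dose of silymarin is not in the labels, and no label says that replicates were separate cultures, so p-values measure the spread between these samples, which may be technical. Every group is the same cell line, so the values describe 1 line only.

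Translation of most mRNAs begins when eIF2, carrying GTP and the initiator tRNA, joins the small ribosomal subunit together with eIF1, eIF1A, eIF3 and eIF5. The mRNA is brought in by eIF4F, in which eIF4E holds the cap, eIF4G is the scaffold and eIF4A unwinds RNA. Under stress, the eIF2 kinases phosphorylate the alpha subunit of eIF2, which then blocks its own exchange factor eIF2B, so that most translation falls while the transcription factor ATF4 is made. ATF4 raises genes such as ASNS, the asparagine synthetase, and DDIT4, an inhibitor of the growth kinase mTORC1. Binding proteins that mTORC1 phosphorylates hold eIF4E away from eIF4G. These steps act on protein and its phosphorylation, whereas the arrays measured RNA.

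The promoters of 5 genes are shown because the results below turn on them. EIF2AK2 and EIF2AK4 had silymarin arrays below all DMSO arrays at 24 h, EIF2AK3 and EIF4A2 had the smallest p of the members in their relation to ASNS, and EIF4E3 had the lowest silymarin difference at 8 h. The windows are 300 bases long, 250 before and 50 after the start, from RefSeq on GRCh38.p14, 5′ to 3′ on the gene's strand. They lie at chr2:37156931-37157230 (minus strand), chr2:88627415-88627714 (minus), chr15:39933865-39934164 (plus), chr3:186783327-186783626 (plus) and chr3:71729069-71729368 (minus, 1 of 3 windows of that gene). Capitals mark motif matches.
EIF2AK2: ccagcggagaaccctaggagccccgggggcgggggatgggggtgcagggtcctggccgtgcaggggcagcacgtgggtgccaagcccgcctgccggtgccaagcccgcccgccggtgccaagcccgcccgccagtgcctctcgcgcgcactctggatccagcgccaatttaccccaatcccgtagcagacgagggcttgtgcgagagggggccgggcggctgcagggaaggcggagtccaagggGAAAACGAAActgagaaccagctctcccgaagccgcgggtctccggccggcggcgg
EIF2AK3: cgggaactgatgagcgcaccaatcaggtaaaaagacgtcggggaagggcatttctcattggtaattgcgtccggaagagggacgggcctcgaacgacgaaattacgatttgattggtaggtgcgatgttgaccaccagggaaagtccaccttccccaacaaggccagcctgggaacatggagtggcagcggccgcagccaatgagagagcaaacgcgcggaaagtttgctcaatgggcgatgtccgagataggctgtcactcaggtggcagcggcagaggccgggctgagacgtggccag
EIF2AK4: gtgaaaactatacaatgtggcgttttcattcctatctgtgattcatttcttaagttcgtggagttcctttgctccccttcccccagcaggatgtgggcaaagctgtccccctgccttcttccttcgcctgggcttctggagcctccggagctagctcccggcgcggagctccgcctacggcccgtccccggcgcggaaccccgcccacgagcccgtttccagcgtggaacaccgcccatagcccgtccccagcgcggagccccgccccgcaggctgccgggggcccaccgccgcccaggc
EIF4A2: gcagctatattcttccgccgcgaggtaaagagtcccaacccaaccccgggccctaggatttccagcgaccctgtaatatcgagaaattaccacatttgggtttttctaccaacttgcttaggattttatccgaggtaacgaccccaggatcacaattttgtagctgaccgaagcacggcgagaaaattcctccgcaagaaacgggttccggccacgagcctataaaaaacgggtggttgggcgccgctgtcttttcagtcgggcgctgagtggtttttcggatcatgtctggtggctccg
EIF4E3: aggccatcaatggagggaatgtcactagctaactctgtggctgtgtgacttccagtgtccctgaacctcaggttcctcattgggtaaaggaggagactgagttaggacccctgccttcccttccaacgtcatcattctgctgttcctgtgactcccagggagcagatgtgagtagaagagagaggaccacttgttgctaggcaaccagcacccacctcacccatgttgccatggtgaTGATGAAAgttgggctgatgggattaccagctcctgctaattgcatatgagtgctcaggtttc

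At least 1 window was held for 41 of the 48 genes, and 4 motifs were searched in them on both strands. The interferon-stimulated response element, GAAA followed after any 2 bases by another GAAA, is the site of interferon regulatory factors. It was found in 4 of the 41 genes (EIF2AK2, EIF2A, EIF3K and EIF6), beside 4.38% of all 27305 genes, where a gene counts if any of its windows holds it. Of single windows, 3.57% of all 35116 held it. In EIF2AK2, which encodes the interferon-induced kinase PKR, it begins at position 245 of the window, counted from 1 at the 5′ end. The C/EBP-ATF response element TGATGNAA, a site of ATF4, was found in 1 gene, EIF4E3, beside 4.46% of all genes and 3.62% of all windows. Of the 3 windows of EIF4E3 only 1 held a motif, and that window is shown for this reason. The ER stress element, CCAAT and CCACG with any 9 bases between, was found in EIF2A, beside 0.0916% of all genes and 0.0769% of all windows. No member window held the cyclic AMP response element TGACGTCA, which 2.25% of all genes and 1.85% of all windows hold. No matches of different motifs overlapped in these genes, and a match describes letters in the window, not binding.

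Arrays with the same label differed widely in stress genes, and this is described before the comparisons because it runs across all groups. DDIT4 lay at 9.67 or above on the log2 scale in 10 arrays and at 8.35 or below in the other 14, with no array between. Both kinds of array occurred in all 6 groups. The same 10 arrays had the highest ASNS, from 10.49 to 11.26, while the other 14 ran from 9.33 to 10.13. For the identity of the cells, 9 measured hepatocyte and hepatoma markers had means from 11.44 (AHSG) to 13.34 (ALB). Of the 4 leukocyte markers PTPRC averaged 4.33 and CD3E 5.38, both under 6.48, the level below which 40% of all probe set values lie, whereas CD14 averaged 7.13 and LYZ 12.29. The endothelial markers VWF, CDH5 and TEK and the fibroblast marker DCN were under 6.48, whereas PECAM1 averaged 6.89 and the other fibroblast markers ranged from 6.93 to 7.77. Medians of the 24 arrays lay between 7.04 and 7.18. The RNA came from many cells at once, so fewer cells with a transcript and less of it per cell cannot be told apart.

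Initiation factor RNA varied little between arrays of the same label. The pooled SD within groups had a median of 0.081 over the 48 genes and 0.12 over all genes, and 8 of the 48 lay above the all-gene median. Bright genes vary less, so the same was taken at levels of at least 9.59, where the medians were 0.067 for 36 of the genes and 0.10 for all 4454. The 12 eIF3 subunits, which form the scaffold on the small ribosomal subunit, had a median SD of 0.065. EIF3I was the steadiest at 0.033. Its 24 values ran from 12.05 to 12.20. The widest spread belonged to EIF2S3B at 0.29, a copy of the gamma subunit gene of eIF2, then to EIF2AK3 at 0.23, EIF2AK2 at 0.17, EIF3E at 0.16 and EIF1B at 0.14.

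**Figure D1:**
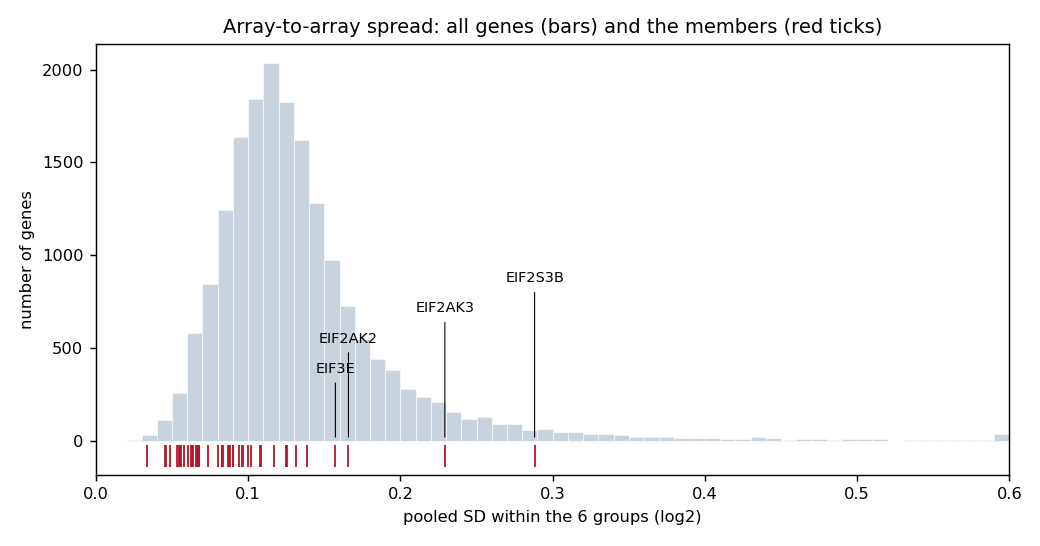
The grey bars count all 18274 genes by their pooled SD within the 6 groups (log2, x axis; genes at or beyond 0.59 are in the last bar), and each red tick is 1 of the 48 initiation factor genes. All but 8 ticks sit at or left of 0.12, the median of all genes, and the labelled EIF2S3B, EIF2AK3, EIF2AK2 and EIF3E sit to the right.

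The first question was whether silymarin changed the RNA of these factors at any time. No member passed the test at 4, 8 or 24 h, and neither did any of the 18274 genes (0.00% called at each time, adjusted p under 0.05 with limma). The smallest adjusted p among the members was 0.99993 at 4 h, 0.9914 at 8 h and 0.99971 at 24 h. Differences of silymarin minus DMSO ran from -0.18 to 0.11 at 4 h, from -0.20 to 0.20 at 8 h and from -0.24 to 0.12 at 24 h on the log2 scale. Their medians were 0.012, 0.032 and 0.0019, beside -0.0051, -0.018 and 0.013 over all genes. Of the 48 genes, 28 lay above 0 at 4 h, 35 at 8 h and 26 at 24 h. With arrays re-centred to 1 median the counts were 34, 35 and 15, after repeated quantile normalization 23, 30 and 28, and with cyclic loess 26, 31 and 30. The median turned to -0.0022 at 4 h after repeated quantile normalization and to -0.020 at 24 h with re-centred arrays. At an unadjusted p under 0.05 the members numbered 0 at 4 h (2.48% of all genes), 1 at 8 h (3.93%) and 3 at 24 h (3.03%). All were lower in silymarin, and EIF4E3 was counted at both 8 h and 24 h. The 2 groups did not overlap in 2 members at 4 h (2.18% of all genes), 2 at 8 h (2.93%) and 4 at 24 h (1.95%).

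**Figure D2:**
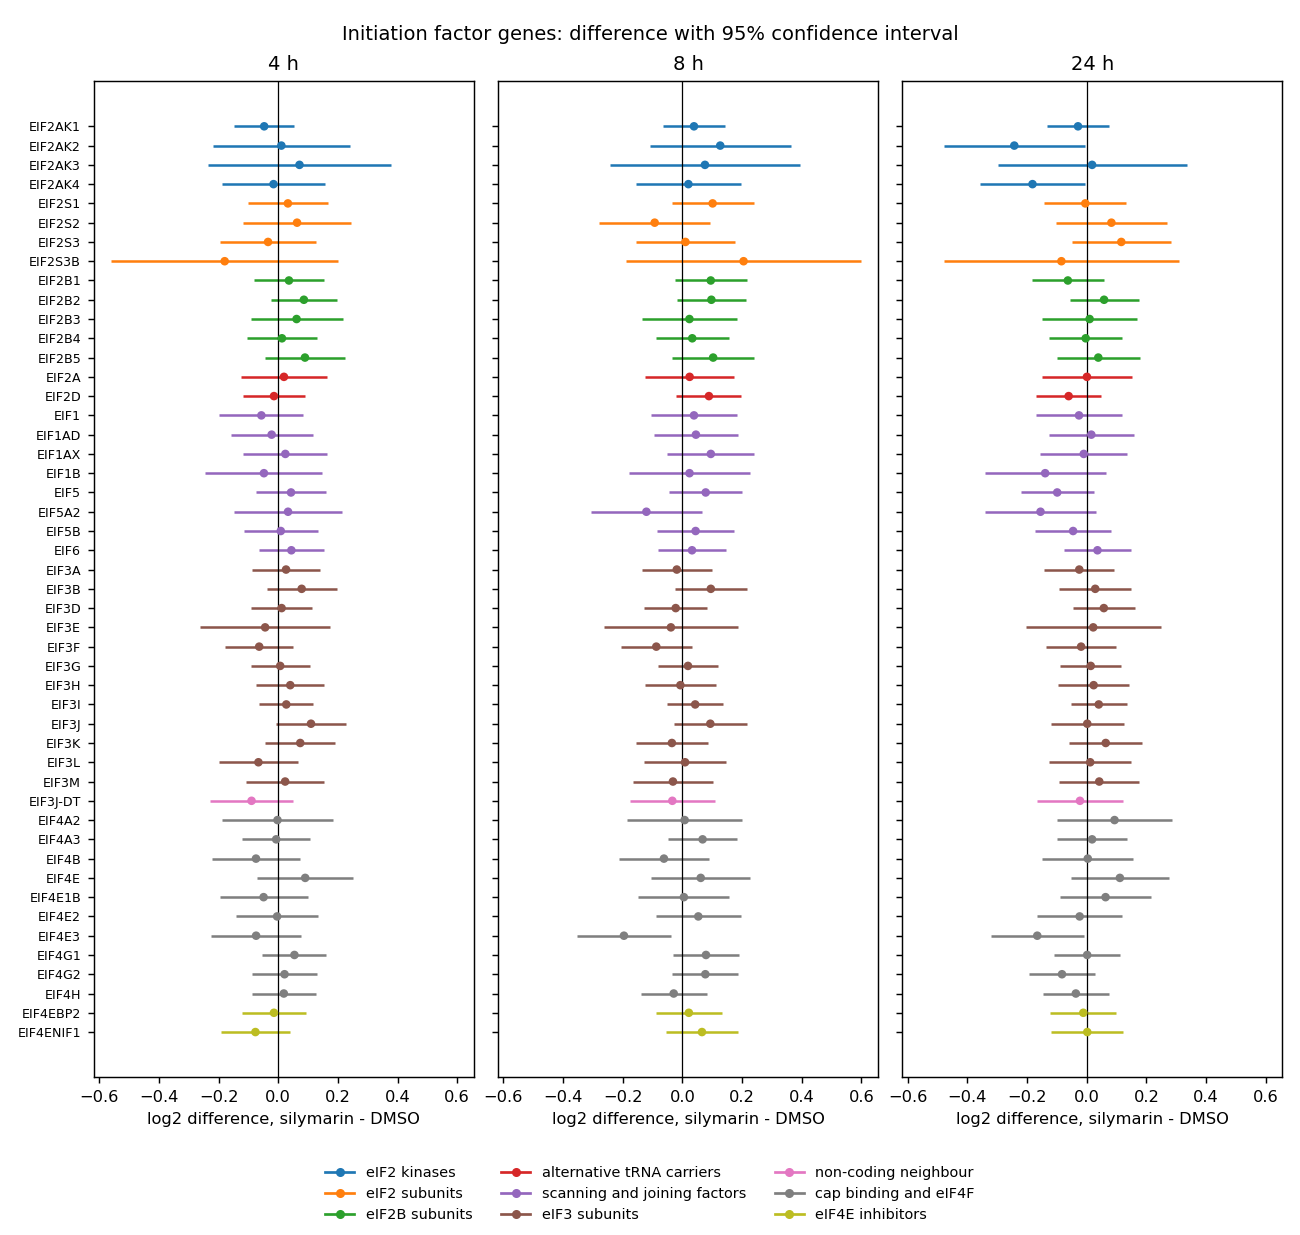
Each point is the log2 difference of silymarin minus DMSO for 1 gene at 4, 8 or 24 h, the bar is its 95% confidence interval from limma, and colours give the role. Points lie between -0.24 and 0.20, and the interval leaves out 0 for EIF4E3 at 8 h and for EIF2AK2, EIF2AK4 and EIF4E3 at 24 h, none of which passed after adjustment over all genes.

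The eIF2 kinases sense different stresses. EIF2AK1 encodes HRI, which responds to low heme and mitochondrial stress. At 4 h, EIF2AK1 was 11.82, 11.81, 11.79 and 11.84 in DMSO and 11.78, 11.83, 11.78 and 11.69 in silymarin. At 8 h, EIF2AK1 was 11.78, 11.81, 11.71, 11.74 and 11.79 in DMSO and 11.81, 11.79 and 11.82 in silymarin. At 24 h, EIF2AK1 was 11.85, 11.83, 11.88, 11.80 and 11.71 in DMSO and 11.75, 11.79 and 11.82 in silymarin. All 24 values lay within 0.19 of each other, and the groups overlapped at each time. Its pooled SD of 0.046 was at the 0.405 percentile of all genes. The silymarin difference was -0.047 (SE 0.048) at 4 h, 0.039 (SE 0.050) at 8 h and -0.029 (SE 0.050) at 24 h.

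EIF2AK2 encodes PKR, the kinase that double-stranded RNA activates. At 4 h, EIF2AK2 was 9.34, 9.41, 9.14 and 9.22 in DMSO and 9.35, 9.19, 9.10 and 9.51 in silymarin. At 8 h, EIF2AK2 was 8.96, 9.38, 9.21, 8.86 and 8.91 in DMSO and 9.34, 9.30 and 8.94 in silymarin. At 24 h, EIF2AK2 was 9.46, 9.27, 9.35, 9.25 and 9.37 in DMSO and 8.99, 9.22 and 9.08 in silymarin. At 4 h the groups overlapped, and the highest of all arrays was silymarin replicate 4. At 8 h both treatments held high and low arrays. At 24 h all 3 silymarin arrays lay below all 5 DMSO arrays. The 24 h difference was -0.24 (SE 0.11, 95% confidence interval -0.48 to -0.0063), with an unadjusted limma p of 0.0447 and an adjusted p of 0.99971. It was 0.010 (SE 0.11) at 4 h and 0.13 (SE 0.11) at 8 h. The change of the difference from 8 h to 24 h was -0.37 (SE 0.16, limma's adjusted p = 0.95027). At an unadjusted p under 0.05 this change was found in 3 of the 48 genes, EIF2AK2, EIF5 and EIF4G2, all lower, and in 4.08% of all genes. The change from 4 h to 8 h reached that level in 0 members (2.37% of all genes), as did that from 4 h to 24 h (3.02%), and none of the 3 changes passed after adjustment in any gene (limma).

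EIF2AK3 encodes PERK, the kinase that senses unfolded protein in the endoplasmic reticulum. At 4 h, EIF2AK3 was 9.63, 9.51, 9.18 and 9.79 in DMSO and 9.90, 9.56, 9.52 and 9.41 in silymarin. At 8 h, EIF2AK3 was 9.48, 9.17, 9.27, 9.57 and 9.80 in DMSO and 9.75, 9.31 and 9.53 in silymarin. At 24 h, EIF2AK3 was 9.51, 9.60, 9.96, 9.36 and 9.35 in DMSO and 9.64, 9.53 and 9.55 in silymarin. The 3 silymarin arrays at 24 h lay close together, the other groups spread more widely, and silymarin and DMSO overlapped at each time. The difference was 0.071 (SE 0.15) at 4 h, 0.075 (SE 0.15) at 8 h and 0.018 (SE 0.15) at 24 h, with intervals that reached from -0.30 to 0.39. In 5 of the 6 groups the array with the highest EIF2AK3 was also the one with the highest DDIT4, which was so for 2.57% of all genes and for no other member. The exception was DMSO at 8 h, where replicate 5 had the highest EIF2AK3 and replicate 4 the highest DDIT4 (9.67, 7.86, 7.50, 10.28 and 10.11 for replicates 1 to 5).

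EIF2AK4 encodes GCN2, which is activated by uncharged tRNA when amino acids are short. At 4 h, EIF2AK4 was 8.71, 8.93, 8.95 and 8.73 in DMSO and 8.81, 8.79, 8.86 and 8.79 in silymarin. At 8 h, EIF2AK4 was 8.57, 8.81, 8.76, 8.60 and 8.48 in DMSO and 8.75, 8.83 and 8.41 in silymarin. At 24 h, EIF2AK4 was 8.80, 8.83, 8.87, 8.88 and 8.73 in DMSO and 8.56, 8.67 and 8.69 in silymarin. At 4 h the DMSO arrays enclosed the silymarin arrays. At 8 h silymarin replicate 3 was the lowest of all 24 arrays, and without it the 8 h difference was 0.14 in place of 0.020. At 24 h all 3 silymarin arrays lay below all 5 DMSO arrays, with a difference of -0.18 (SE 0.085, 95% confidence interval -0.36 to -0.0049) and an adjusted limma p of 0.99971. The unadjusted p was 0.0444. Silymarin replicate 1 at 24 h, the lowest there for both EIF2AK2 and EIF2AK4, had DDIT4 at 10.16, while replicates 2 and 3 were at 8.15 and 8.35. Without it the 24 h differences were -0.19 for EIF2AK2 and -0.14 for EIF2AK4. In DMSO at 24 h, DDIT4 was 8.00, 8.17, 10.30, 7.52 and 8.28.

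**Figure D3:**
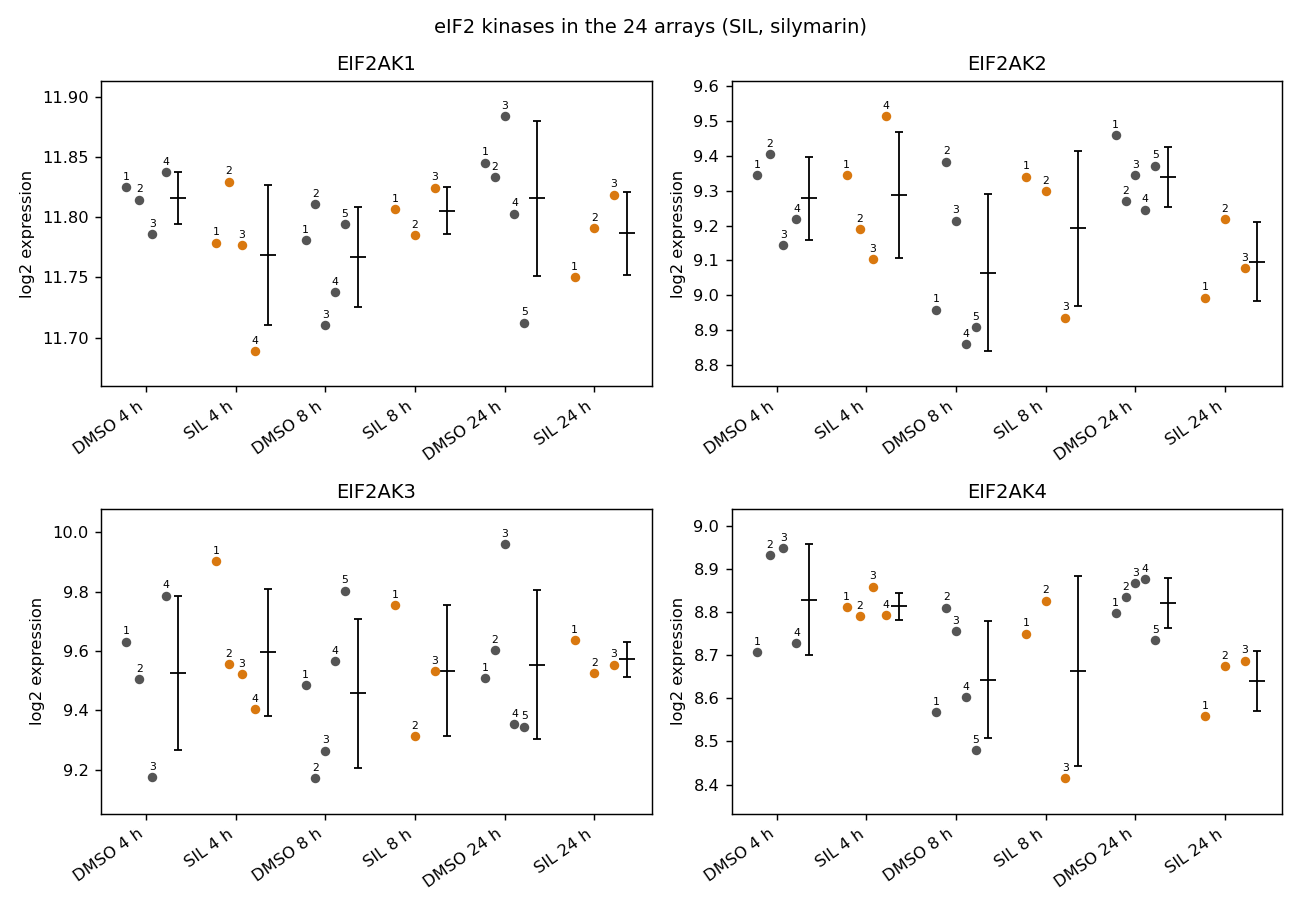
Log2 expression of the 4 eIF2 kinases in each array, grouped by treatment and time, with replicate numbers beside the points and the group mean ± SD as a bar; each panel has its own scale. EIF2AK1 spans 0.19 in all, and in EIF2AK2 and EIF2AK4 the 3 silymarin points at 24 h lie below the 5 DMSO points.

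Among the subunits of eIF2, EIF2S1 encodes the alpha subunit that the kinases phosphorylate. At 4 h, EIF2S1 was 11.26, 11.23, 11.14 and 11.12 in DMSO and 11.09, 11.23, 11.28 and 11.28 in silymarin. At 8 h, EIF2S1 was 10.94, 11.04, 11.10, 10.84 and 11.04 in DMSO and 11.19, 11.13 and 10.96 in silymarin. At 24 h, EIF2S1 was 11.08, 11.09, 11.15, 11.14 and 11.17 in DMSO and 11.06, 11.10 and 11.20 in silymarin. The lowest arrays were DMSO replicates 4 and 1 at 8 h, and treatments overlapped at each time. The silymarin difference was 0.032 (SE 0.064), 0.10 (SE 0.067) and -0.0045 (SE 0.067) at 4, 8 and 24 h. EIF2S2 encodes the beta subunit, which binds eIF5 and eIF2B. The 4 h values of EIF2S2 were 11.09, 11.10, 11.08 and 11.11 in DMSO and 11.18, 11.19, 11.31 and 10.94 in silymarin. The 8 h values of EIF2S2 were 11.19, 10.96, 10.95, 11.28 and 11.31 in DMSO and 11.11, 10.93 and 11.09 in silymarin. The 24 h values of EIF2S2 were 11.07, 11.17, 11.21, 11.07 and 11.01 in DMSO and 11.19, 11.04 and 11.34 in silymarin. Its differences were 0.063 (SE 0.087), -0.093 (SE 0.090) and 0.083 (SE 0.090), with overlap at each time.

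EIF2S3 encodes the gamma subunit, which holds GTP and the initiator tRNA. The 4 h values of EIF2S3 were 11.49, 11.35, 11.31 and 11.49 in DMSO and 11.47, 11.24, 11.41 and 11.39 in silymarin. The 8 h values of EIF2S3 were 11.48, 11.25, 11.24, 11.54 and 11.47 in DMSO and 11.41, 11.41 and 11.40 in silymarin. The 24 h values of EIF2S3 were 11.24, 11.40, 11.40, 11.40 and 11.13 in DMSO and 11.42, 11.52 and 11.35 in silymarin. The lowest array was DMSO replicate 5 at 24 h, and the treatments overlapped at all 3 times. Differences were -0.034 (SE 0.078), 0.010 (SE 0.081) and 0.12 (SE 0.081), the last the highest of the members at 24 h. EIF2S3B is a retrocopy of this gene, so the array's probes may not tell the transcripts of both apart, and its values are uncertain for that reason. EIF2S3B at 4 h was 7.99, 7.17, 7.31 and 7.52 with DMSO and 7.02, 7.43, 7.55 and 7.26 with silymarin. EIF2S3B at 8 h was 7.69, 7.20, 6.72, 7.35 and 7.29 with DMSO and 7.52, 7.36 and 7.49 with silymarin. EIF2S3B at 24 h was 6.91, 7.05, 7.74, 7.41 and 7.23 with DMSO and 7.12, 7.16 and 7.26 with silymarin. DMSO replicate 1 at 4 h was the highest array and DMSO replicate 3 at 8 h the lowest, a range of 1.28. The silymarin difference of EIF2S3B was the lowest of the members at 4 h, -0.18 (SE 0.18), and the highest at 8 h, 0.20 (SE 0.19), and both intervals held 0. Both values rest on 1 array: without DMSO replicate 1 at 4 h the 4 h difference was -0.015, and without DMSO replicate 3 at 8 h the 8 h difference was 0.072.

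The 5 subunits of eIF2B, the exchange factor that returns eIF2 to its GTP form, lay above 0 in 5 of 5 genes at 4 h and at 8 h, and in 3 of 5 at 24 h. None passed the test. The median difference was 0.061 at 4 h, 0.095 at 8 h and 0.0099 at 24 h. The 4 h count was 4 of 5 after repeated quantile normalization, and the 24 h count was 2 of 5 with re-centred arrays and 4 of 5 with cyclic loess. EIF2B5, the catalytic epsilon subunit, had the largest differences of the 5 with 0.089 (SE 0.065) at 4 h and 0.10 (SE 0.067) at 8 h. At 8 h its silymarin arrays, 8.13, 8.09 and 8.07, lay just above its DMSO arrays, 8.05, 8.05, 8.06, 7.81 and 7.99. The gap between the nearest arrays was small, and the low DMSO array was replicate 4. EIF2B2, the beta subunit, was 10.06, 10.14, 10.14 and 10.06 in DMSO and 10.18, 10.15, 10.22 and 10.19 in silymarin at 4 h, with no overlap. Averaged over the 3 times, EIF2B2 differed by 0.080 (SE 0.032, limma's adjusted p = 0.99986), and at an unadjusted p under 0.05 it was 1 of 2 members, with EIF4E3, beside 2.83% of all genes.

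EIF2A and EIF2D, which can deliver initiator tRNA without eIF2, differed by 0.019 (SE 0.070) and -0.014 (SE 0.051) at 4 h. At 8 h the values were 0.024 (SE 0.072) and 0.089 (SE 0.053), and at 24 h they were 0.00097 (SE 0.072) and -0.060 (SE 0.053). Neither passed at any time.

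The 8 genes of scanning and subunit joining had 5 members above 0 at 4 h, 7 at 8 h and 2 at 24 h, and none passed. The 4 h count was 4 after repeated quantile normalization and with cyclic loess. The 24 h count was 3 with each of these and 1 with re-centred arrays. EIF1, which guards the choice of the start codon, differed by -0.057 (SE 0.068), 0.039 (SE 0.070) and -0.026 (SE 0.070) at 4, 8 and 24 h. EIF1B is its close relative. At 4 h, EIF1B was 10.05, 10.02, 10.06 and 9.97 in DMSO and 9.93, 9.94, 9.95 and 10.10 in silymarin. At 8 h, EIF1B was 10.15, 9.97, 9.72, 10.11 and 10.03 in DMSO and 10.08, 10.05 and 9.93 in silymarin. At 24 h, EIF1B was 10.04, 9.66, 10.05, 10.04 and 10.09 in DMSO and 9.97, 9.63 and 9.91 in silymarin. It was low in DMSO replicate 2 and silymarin replicate 2 at 24 h and in DMSO replicate 3 at 8 h, and differences were -0.048 (SE 0.095), 0.024 (SE 0.098) and -0.14 (SE 0.098). The 24 h value was -0.036 without silymarin replicate 2 and -0.22 without DMSO replicate 2, and the 8 h value was -0.045 without DMSO replicate 3. EIF5A2 encodes a second eIF5A, the hypusine-carrying factor that helps ribosomes past difficult peptides. The 4 h values of EIF5A2 were 8.34, 8.47, 8.19 and 8.20 in DMSO and 8.25, 8.27, 8.37 and 8.44 in silymarin. The 8 h values of EIF5A2 were 8.28, 8.33, 8.20, 8.24 and 8.11 in DMSO and 8.13, 8.30 and 7.91 in silymarin. The 24 h values of EIF5A2 were 8.19, 8.43, 8.26, 8.44 and 8.37 in DMSO and 8.07, 8.11 and 8.37 in silymarin. The lowest was silymarin replicate 3 at 8 h. Differences were 0.033 (SE 0.087), -0.12 (SE 0.090) and -0.15 (SE 0.090), with overlap throughout. EIF5, the GTPase activator of eIF2, differed by 0.043 (SE 0.057), 0.078 (SE 0.059) and -0.099 (SE 0.059). EIF5B, which joins the large subunit, stayed between -0.045 and 0.044. EIF6, which keeps free large subunits apart from small ones, stayed between 0.032 and 0.044.

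The eIF3 complex was represented by 12 subunits, of which 9 lay above 0 at 4 h, 5 at 8 h and 10 at 24 h. None passed, and with re-centred arrays the 24 h count was 7. After repeated quantile normalization the counts were 8, 3 and 10 at 4, 8 and 24 h, and with cyclic loess 8, 4 and 10. The highest difference at 4 h among all 48 genes was that of EIF3J, a loosely bound subunit at the decoding site, with 0.11 (SE 0.057, 95% confidence interval -0.0087 to 0.23). EIF3J at 4 h was 9.75, 9.94, 9.88 and 9.83 with DMSO and 9.86, 10.04, 9.94 and 10.01 with silymarin. EIF3J at 8 h was 9.74, 9.89, 9.76, 9.76 and 9.80 with DMSO and 9.95, 9.92 and 9.79 with silymarin. EIF3J at 24 h was 9.87, 9.92, 9.96, 9.90 and 9.89 with DMSO and 9.88, 9.86 and 9.99 with silymarin. At 4 h the 2 highest arrays were silymarin replicates 2 and 4 and the lowest was DMSO replicate 1, with overlap between. At 24 h the means were 9.91 and 9.91. The subunit gene that varied most among the 12 was EIF3E. EIF3E at 4 h was 10.52, 10.23, 10.32 and 10.30 with DMSO and 10.08, 10.43, 10.42 and 10.27 with silymarin. EIF3E at 8 h was 10.64, 10.26, 10.02, 10.45 and 10.24 with DMSO and 10.36, 10.24 and 10.25 with silymarin. EIF3E at 24 h was 10.15, 10.11, 10.39, 10.30 and 10.28 with DMSO and 10.26, 10.15 and 10.39 with silymarin. DMSO at 8 h alone held both its highest array, replicate 1, and its lowest, replicate 3, and the silymarin differences were -0.044 (SE 0.11), -0.039 (SE 0.11) and 0.022 (SE 0.11). EIF3I at 24 h was 12.16, 12.15, 12.15, 12.13 and 12.13 in DMSO and 12.17, 12.19 and 12.19 in silymarin, without overlap but only 0.041 apart (SE 0.045).

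Among the 10 genes of cap binding and eIF4F, 4 lay above 0 at 4 h, 7 at 8 h and 6 at 24 h. With re-centred arrays the counts were 7 at 4 h and 3 at 24 h, so the side of 0 that held most genes turned at both times. After repeated quantile normalization and with cyclic loess the counts were 4, 6 and 6 at 4, 8 and 24 h. EIF4E3, an unusual cap-binding relative of eIF4E, had the lowest difference of the members at 8 h. At 4 h, EIF4E3 was 7.80, 7.74, 7.68 and 7.55 in DMSO and 7.84, 7.67, 7.48 and 7.48 in silymarin. At 8 h, EIF4E3 was 7.74, 7.63, 7.64, 7.58 and 7.66 in DMSO and 7.45, 7.53 and 7.38 in silymarin. At 24 h, EIF4E3 was 7.71, 7.70, 7.62, 7.78 and 7.71 in DMSO and 7.45, 7.54 and 7.62 in silymarin. At 8 h all 3 silymarin arrays lay below all 5 DMSO arrays, and at 24 h silymarin replicate 3 and DMSO replicate 3 both stood at 7.62. The difference was -0.074 (SE 0.073) at 4 h, -0.20 (SE 0.076, limma's adjusted p = 0.9914) at 8 h and -0.17 (SE 0.076, adjusted p = 0.99971) at 24 h. Unadjusted p was 0.0163 at 8 h and 0.0391 at 24 h. Averaged over the times it was -0.15 (SE 0.043, limma's adjusted p = 0.99986), with an unadjusted p of 0.00269, the smallest of the members. Over all alternatives and left-out arrays, the 8 h value stayed between -0.24 and -0.16.

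EIF4E, the main cap-binding protein, was the only member whose mean lay under 6.48, so its probe set may hold little signal. At 4 h, EIF4E was 6.09, 6.14, 6.23 and 6.18 in DMSO and 6.17, 6.30, 6.31 and 6.23 in silymarin. At 8 h, EIF4E was 6.03, 6.25, 6.24, 5.99 and 6.22 in DMSO and 6.26, 6.17 and 6.17 in silymarin. At 24 h, EIF4E was 6.20, 6.07, 6.19, 6.29 and 6.08 in DMSO and 6.09, 6.26 and 6.48 in silymarin. All groups overlapped. Differences of 0.090 (SE 0.077), 0.061 (SE 0.080) and 0.11 (SE 0.080) were above 0 at each time without passing. EIF4A2 encodes the second form of the helicase eIF4A. The 4 h values of EIF4A2 were 11.13, 10.88, 10.83 and 11.03 in DMSO and 10.98, 10.92, 11.00 and 10.96 in silymarin. The 8 h values of EIF4A2 were 11.15, 10.73, 10.81, 11.20 and 11.08 in DMSO and 11.04, 10.95 and 11.01 in silymarin. The 24 h values of EIF4A2 were 10.81, 10.84, 11.00, 10.83 and 10.76 in DMSO and 11.05, 10.78 and 10.99 in silymarin. The highest arrays were DMSO replicates 4 and 1 at 8 h and the lowest was DMSO replicate 2 at 8 h, and treatments overlapped at each time. Differences were -0.0026 (SE 0.091), 0.0075 (SE 0.094) and 0.093 (SE 0.094). The scaffold EIF4G1 differed by 0.054 (SE 0.052) at 4 h, where its 4 silymarin arrays (10.68, 10.72, 10.69 and 10.71) lay above its 4 DMSO arrays (10.61, 10.67, 10.65 and 10.65). EIF4G2, or DAP5, a scaffold without an eIF4E site, differed by -0.083 (SE 0.054) at 24 h, with 12.24, 12.28 and 12.28 in silymarin below 12.36, 12.30, 12.38, 12.37 and 12.35 in DMSO.

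The eIF4E inhibitor EIF4EBP2, a repressor that mTORC1 releases from eIF4E, was among the steadiest genes, with a pooled SD of 0.055. At 4 h, EIF4EBP2 was 12.15, 12.23, 12.27 and 12.24 in DMSO and 12.23, 12.23, 12.22 and 12.16 in silymarin. At 8 h, EIF4EBP2 was 12.22, 12.28, 12.12, 12.20 and 12.28 in DMSO and 12.25, 12.25 and 12.21 in silymarin. At 24 h, EIF4EBP2 was 12.30, 12.17, 12.31, 12.19 and 12.16 in DMSO and 12.19, 12.18 and 12.27 in silymarin. All 24 values lay between 12.12 and 12.31, and groups overlapped. Differences were -0.014 (SE 0.052), 0.021 (SE 0.053) and -0.011 (SE 0.053). EIF4EBP3 had no probe set of its own symbol and was not analysed here. EIF4ENIF1, which carries eIF4E to the nucleus and to P-bodies, differed by -0.077 (SE 0.056), 0.065 (SE 0.058) and 0.0020 (SE 0.058).

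In the solvent alone, factor RNA was lower at 8 h than at 4 h in most members, though none passed the test. With 11 of 48 above 0, the median difference was -0.050, beside 0.0094 over all genes (0.00% called). The kinases had 0 of 4 above 0, the eIF2B subunits 0 of 5 and the eIF3 subunits 6 of 12. The eIF3 count was 3 with re-centred arrays and 8 after the other 2 scalings, which gave 1 of 5 for eIF2B. At an unadjusted p under 0.05, 4 members were lower and none higher (6.50% of all genes in either direction): EIF2S1, EIF2AK4, EIF2D and EIF2B1. The groups did not overlap in EIF2S1, the phosphorylated subunit, and in EIF1AX (2.24% of all genes). EIF2S1 differed by -0.20 (SE 0.061, limma's adjusted p = 0.7393). The count above 0 was 5 with re-centred arrays, 18 after repeated quantile normalization and 20 with cyclic loess. DDIT4 was at 9.67 or above in 3 of the 5 DMSO arrays at 8 h and in 2 of the 4 at 4 h, and its part in this difference was not tested. From 4 h to 24 h in DMSO, 24 of 48 lay above 0, with a median of 0.0012, and EIF3L alone had an unadjusted p under 0.05 (1.70% of all genes), at -0.13 (SE 0.061). No member's groups were free of overlap there (0.646% of all genes).

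Since the arrays of a label differed in ASNS by more than 1 on the log2 scale, each gene was also related to ASNS with the group means held fixed. For 9 of the 48 genes the limma slope passed over all genes tested, 7 positive (8.94% of all genes) and 2 negative (8.33%). That is 18.8% of the members beside 17.3% of all genes, so factors as a set did not stand apart from other genes. EIF4A2 had 0.17 log2 units per unit of ASNS (95% confidence interval 0.11 to 0.22, adjusted p = 0.000105), and EIF2AK3 had 0.24 (0.14 to 0.35, adjusted p = 0.00141). EIF1 followed with 0.096 (adjusted p = 0.012). Of the eIF2 subunits 3 of 4 were positive, EIF2S2 with 0.12, EIF2S3 with 0.098 and EIF2S3B with 0.25, and EIF2S1 was at -0.049 (adjusted p = 0.274). EIF4B, a helper of the helicase, had 0.093. The negative slopes were those of EIF2AK4, -0.11 (adjusted p = 0.0193), and of EIF4E2, a cap-binding repressor, -0.084 (adjusted p = 0.0314). None of the eIF2B or eIF3 subunits passed.

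Single choices carried several of these slopes. The calls of EIF2AK3, EIF4A2 and EIF1 held with each array left out in turn, whereas EIF2S2, EIF2S3, EIF2S3B, EIF4B, EIF2AK4 and EIF4E2 each lost the call without at least 1 array. Without DMSO replicate 3 at 8 h, 3 positive slopes passed in place of 7, and without DMSO replicate 1 at 4 h there were 4. The share of all genes that passed without these arrays is not given here, so the drop cannot be read as particular to the members. With arrays re-centred, EIF2AK4 was at -0.086 (adjusted p = 0.118) and EIF4E2 at -0.062 (adjusted p = 0.186), so neither negative slope passed. With probe sets averaged per gene, EIF4A2 was at 0.076 (adjusted p = 0.242) and EIF4B was at 0.11 (adjusted p = 0.196). The second probe set of EIF4A2, a dimmer one with a mean of 7.06, had deviations that correlated at 0.18 with those of the first over the 24 arrays.

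Because DDIT4 splits the arrays, the relation with ASNS was also taken on each side of the gap alone, with deviations from group means. Each group mean was taken over all arrays of the group, from both sides of the gap. A deviation on 1 side thus depends on how many arrays of its group lie on the other side. For that reason these r cannot isolate a relation within a side. The permutations shuffled the arrays of a side without regard to group, so their p are only approximate. The r with group means kept use the values themselves, which include differences between groups. For EIF4A2, Pearson's r with ASNS was 0.624 within the 10 arrays above the gap (Spearman's rho 0.661, permutation p = 0.056 and 0.0436). It was 0.816 within the 14 arrays below it (rho 0.820, permutation p = 0.00029 and 0.00061). Without the 2 arrays farthest from the median ASNS of each side, r was 0.583 above and 0.781 below. With group means kept it was 0.806 above and 0.617 below, the latter 0.184 without the 2 farthest arrays, so that value rests on them.

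For EIF2AK3, the slope over all arrays passed, whereas on each side alone no permutation p with ASNS was under 0.05. With so few arrays, and deviations that mix both sides, this neither shows nor excludes a relation. Above the gap r was 0.026 (rho 0.139, permutation p = 0.941 and 0.710), and below it r was 0.359 (rho 0.262, permutation p = 0.207 and 0.365). Without the 2 farthest arrays these were 0.339 and 0.323. With group means kept r was -0.590 above the gap and 0.224 below, and -0.527 and -0.186 without the 2 farthest arrays. With DDIT4 itself, EIF2AK3 had r = 0.684 above the gap (rho 0.648, permutation p = 0.0303 and 0.0499). This was 0.374 without the 2 farthest arrays, so it rests on them. Below the gap it was 0.529 (rho 0.486, permutation p = 0.0528 and 0.0806).

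For EIF2AK4, an unadjusted permutation p under 0.05 was found below the gap only, and only with deviations from group means. There r with ASNS was -0.583 (rho -0.569, permutation p = 0.0292 and 0.0372), and -0.687 without the 2 farthest arrays. Above the gap it was -0.125 (rho -0.067, permutation p = 0.729 and 0.865), and 0.437 without the 2 farthest. With DDIT4, r below the gap was -0.818 (rho -0.820, permutation p = 0.00047 and 0.0007), and -0.775 without the 2 farthest arrays. Above the gap it was 0.458 (rho 0.345, permutation p = 0.184 and 0.331). With group means kept, r with ASNS was -0.615 above and -0.020 below. There r with DDIT4 below was -0.532, and -0.300 without the 2 farthest arrays. The relations below the gap thus depend on removing group means that were taken over both sides.

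EIF1 had r = 0.638 with ASNS above the gap (rho 0.648, permutation p = 0.0476 and 0.0495) and 0.504 below it (rho 0.459, permutation p = 0.066 and 0.101). Without the 2 farthest arrays these were 0.522 and 0.459, and with group means kept they were 0.730 and 0.132. These 4 genes were picked after their values were seen. The 48 genes were each related to ASNS and to DDIT4 on each side, and the p-values within a side are unadjusted. With ASNS, an unadjusted p under 0.05 was found for 2 members above the gap, both positive, and for 10 below it, 7 positive and 3 negative. With DDIT4 it was found for 1 member above and 5 below. The same counts over all genes were not computed, so these do not show whether the members differ from other genes. Below the gap, the largest r with ASNS after EIF4A2 were 0.772 for EIF4B (rho 0.785, permutation p = 0.00122 and 0.00169), 0.719 for EIF3E (rho 0.556, permutation p = 0.0036 and 0.0409) and 0.672 for EIF2S2 (rho 0.552, permutation p = 0.00827 and 0.0429). Without the 2 farthest arrays these were 0.545, 0.430 and 0.473. With group means kept, r was 0.521, 0.653 and 0.632 for EIF4B, EIF3E and EIF2S2. Without the 2 farthest arrays the kept values were 0.488, 0.436 and -0.143, so that of EIF2S2 rests on those arrays. RNA quality and culture of the arrays were not tested as sources of these relations.

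**Figure D4:**
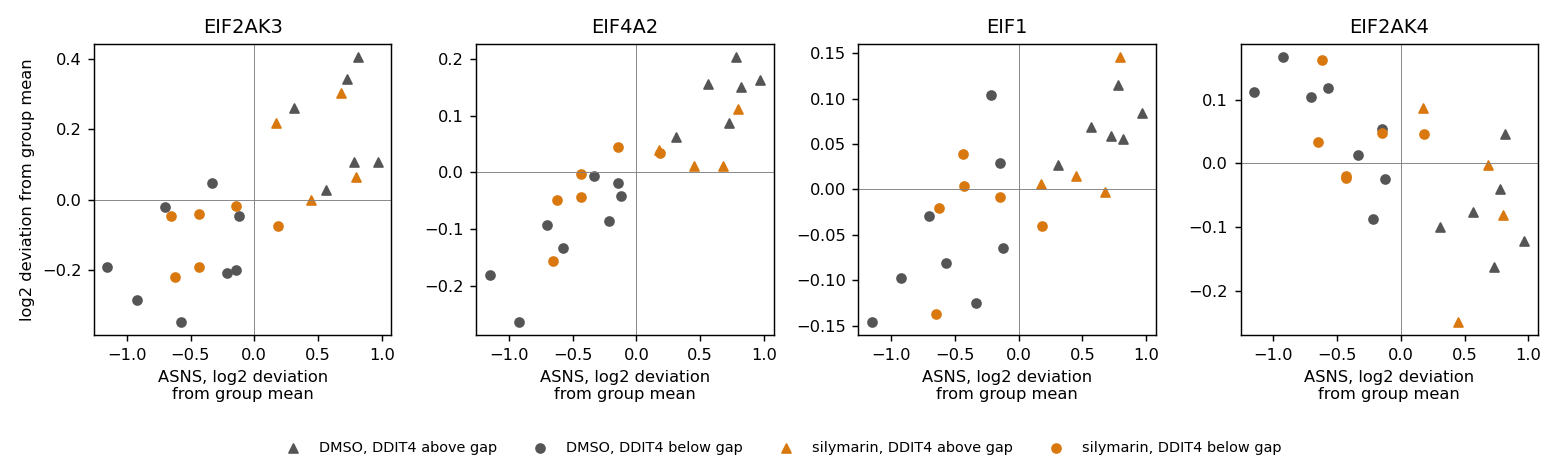
Each point is 1 array, as its log2 deviation from its group mean in ASNS (x axis) and in EIF2AK3, EIF4A2, EIF1 or EIF2AK4 (y axis, own scale per panel), with triangles for DDIT4 above the gap and orange for silymarin. Within triangles and within circles r is 0.624 and 0.816 for EIF4A2, 0.026 and 0.359 for EIF2AK3, 0.638 and 0.504 for EIF1, and -0.125 and -0.583 for EIF2AK4. Group means are over triangles and circles together, so these r cannot isolate a relation within either.

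**Figure D5:**
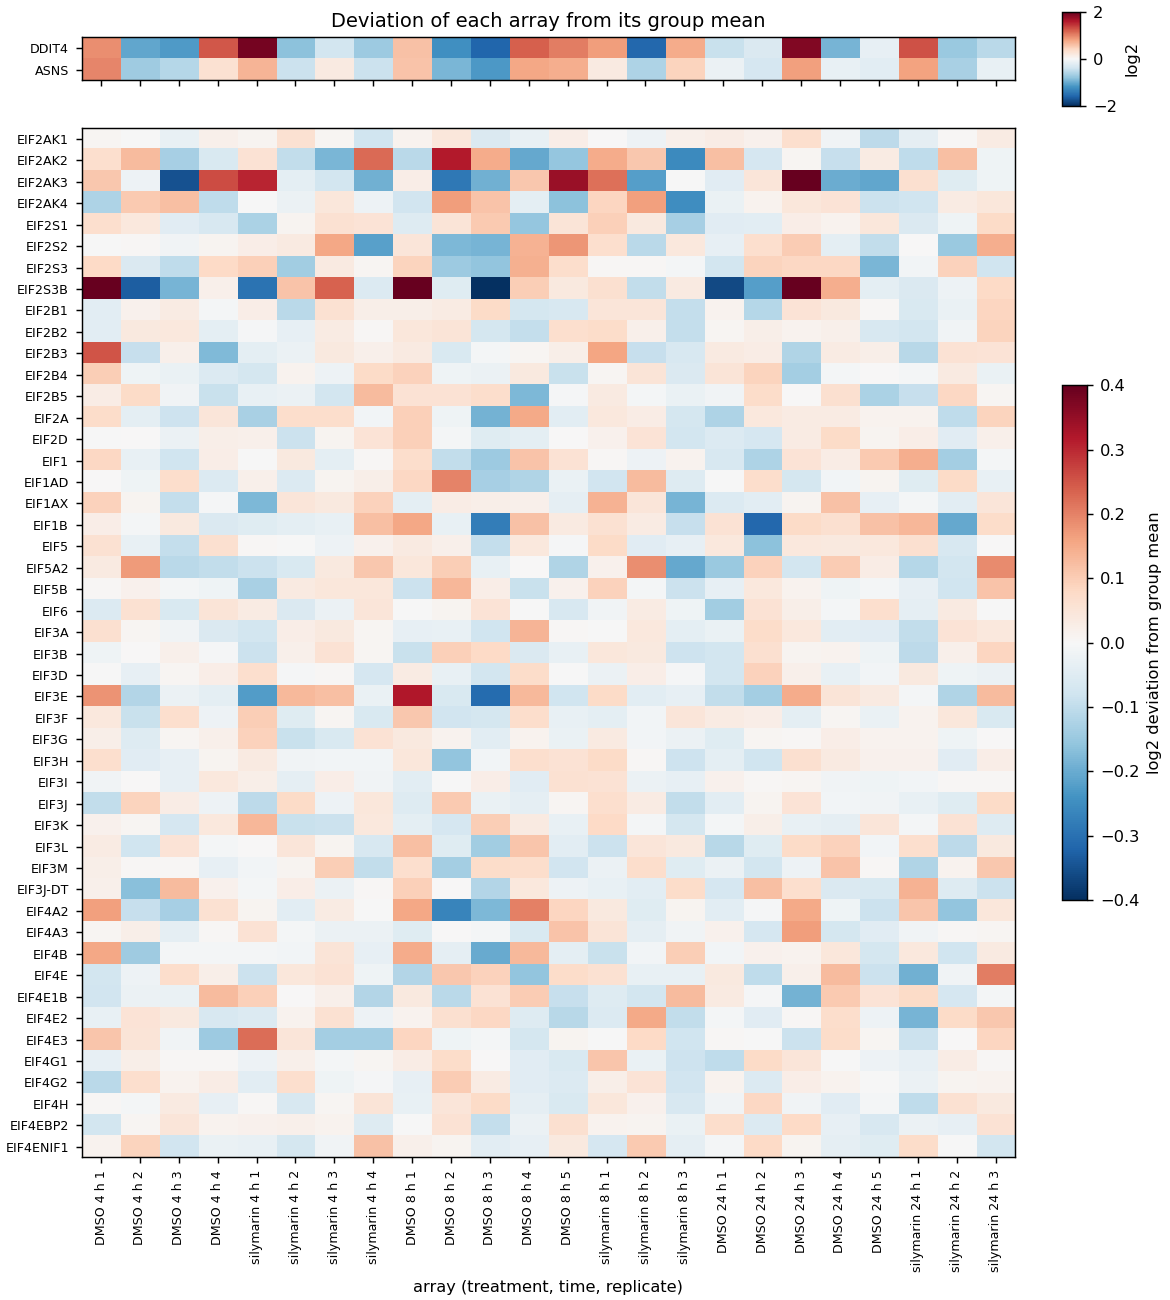
Log2 deviation of each of the 48 genes from its group mean in each of the 24 arrays, with DDIT4 and ASNS above on a wider colour scale; deviations beyond 0.4 (2 for the upper rows) take the end colour. Red and blue cells gather in the rows of EIF2S3B, EIF2AK3, EIF2AK2 and EIF3E, while the rows of EIF2AK1, EIF3G and EIF3I are nearly blank.

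Other genes of the stress response and of translation control gave no call between treatments either. Of 39 symbols listed, 38 were measured, and the other, GCN1L1, is an older symbol of GCN1, which was measured. At an unadjusted limma p under 0.05 the measured genes numbered 0 at 4 h (2.48% of all genes), 1 at 8 h, PABPC4 (3.93%), and 0 at 24 h (3.03%). At 4 h 19 of the 38 lay above 0, at 8 h 22 and at 24 h 24. The smallest p at 4 h was that of RPS6KB1, the S6 kinase, at -0.092 (SE 0.068), then GCN1, the partner of GCN2, at 0.083 (SE 0.062), and RPTOR, a subunit of mTORC1, at 0.086 (SE 0.077). At 8 h PABPC4, a poly(A)-binding protein, differed by 0.21 (SE 0.076, limma's adjusted p = 0.9914), PABPC1 by 0.090 (SE 0.052) and ABCE1, the ribosome recycling factor, by 0.14 (SE 0.082). At 24 h TRIB3, a target of ATF4, differed by 0.51 (SE 0.28), and by 0.14 without silymarin replicate 1, the array of its group with high DDIT4. The elongation factor subunit EEF1B2 differed by 0.17 (SE 0.098) and PAIP2, an inhibitor of poly(A)-binding protein, by -0.10 (SE 0.062). Without 1 array, EEF1B2 ranged from 0.11 to 0.29, PAIP2 from -0.17 to -0.029 and ABCE1 at 8 h from 0.078 to 0.23. The intervals of the stress genes were wide: CHAC1 differed by -0.30 (SE 0.75), 0.33 (SE 0.78) and 0.48 (SE 0.78) at 4, 8 and 24 h. Each of these turned sign without 1 array, to 0.14 without DMSO replicate 4 at 4 h, to -0.12 without DMSO replicate 3 at 8 h and to -0.15 without silymarin replicate 1 at 24 h. On ASNS, 18 of the 37 others had a positive slope that passed and none a negative one, beside 8.94% and 8.33% of all genes. The list holds targets of ATF4, as ASNS is, so it was not chosen apart from ASNS.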

How the data were processed

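The 24 samples were run on Human Gene 1.0 ST arrays (Affymetrix). What the authors deposited is 1 log2 level per probe set and array. Per the submitters' processing notes, RMA and oligo were used; no version and no genome build were given in the sources used here. RMA corrects background, applies quantile normalization and summarises probes. The values were used as deposited. Of 28869 probe sets, 19302 had 1 gene symbol in the platform annotation, 1729 had several and 7838 were not listed in it. The probe set with the highest mean over 24 arrays was kept per gene, which left 18274 genes. EIF4A1, EIF3C and EIF5A share probe sets with other symbols and were not analysed here.

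The 6 group means were fitted in limma 3.58.1 (R 4.3.3; lmFit, eBayes; 18 residual and 5.04 prior degrees of freedom) with two-sided tests, Benjamini-Hochberg adjustment over all genes and a threshold of 0.05. The script was tested on simulated data. The slope on ASNS adds ASNS as a covariate, was chosen after seeing the data and leaves 18273 genes. Correlations used deviations from group means, each over all arrays of a group, and 100000 permutations, two-sided (SciPy 1.17.1). Since a DDIT4 gap above 1 splits the arrays, the correlations of these deviations were then taken within each side. Permutations shuffled arrays without regard to group, although deviations in a group share a removed mean, so their p are only approximate. Per-array values are given for the eIF2 kinases, EIF2S1 to EIF2S3, EIF4EBP2, the 6 other members with the largest pooled SD and the member with the largest difference in each direction at each time. Others outside this rule are named where few members met a criterion, after their values were seen. Members and lists were chosen with earlier results of these data known. Promoter windows came from a RefSeq table on GRCh38.p14. Alternatives were 3 scalings, dim genes left out, probe sets averaged per gene, trend and robust settings, array weights, only the groups compared, the replicate number as a block and each array left out. Precision is limited by the number of arrays. Figures used matplotlib 3.10.9 in Python 3.11.15.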

Additional observations from a re-analysis of the deposited data

Results flagged for a closer look

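In groups of 4 or 5 arrays, the highest or lowest value was compared with its nearest neighbour for the 16 genes given array by array, and 3 of 64 groups had an array that stood apart by Dixon's criterion; chance gives about 1 in 20. EIF4EBP2, the repressor of eIF4E, was 12.16 in silymarin replicate 4 at 4 h, below the other 3 arrays of its group. EIF1B, the relative of eIF1, was 9.66 in DMSO replicate 2 at 24 h, below the other 4 arrays. EIF1B was also 10.10 in silymarin replicate 4 at 4 h, above the other 3.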

How the results depend on the processing

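With no gene called in any comparison, the median member differences and the median spread moved by less than the spread between replicates in all alternatives run. At 24 h, 1 gene passed after repeated quantile normalization and 1 with cyclic loess (RPE65, no member; 0.42, limma's adjusted p = 0.0266 and 0.0411, beside 0.065 as reported), and 0 to 1 with arrays left out (1 without silymarin 4 h replicate 1 or 2 or DMSO 8 h replicate 3). Members with a negative ASNS slope numbered 2 as reported, 0 with re-centred arrays, 4 after repeated quantile normalization, 6 with group means kept and 1 to 3 with arrays left out. Positive slopes numbered 7 as reported and 3 to 8 with arrays left out. As reported, 8.33% of all genes had a negative slope that passed and 8.94% a positive one. The shares of all genes under the alternatives are not given here, so these shifts cannot be read as particular to the members. EIF2AK2 also passed with group means kept (-0.16, adjusted p = 0.0118), after repeated quantile normalization (-0.13, adjusted p = 0.0435) and without any 1 of 5 arrays (DMSO 4 h replicates 1 and 3, silymarin 4 h replicates 1 and 2, silymarin 8 h replicate 1). The causes of these shifts were not tested. Silymarin and DMSO samples share replicate numbers, and the labels do not say that numbers pair samples. Deviations of same-numbered arrays correlated from -0.137 to 0.426. With the replicate number as a block (the replicate block), 0 genes were called at 4 h, 8 h and 24 h, as without it, and member medians were 0.012, 0.029 and -0.00040. No scaling moved the median of all genes by over 0.1. Among members, EIF4E lay under the level of dim genes, which limits what its values show. Of 48 silymarin differences (16 genes at 3 times), 21 turned sign with 1 array left out, none of them beyond 0.085 in size as reported.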

Other observations

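Where a factor had several probe sets, they did not always give the same difference. The 3 probe sets of EIF4B, the helper of the helicase, differed by -0.075, -0.057 and -0.343 at 4 h, and by 0.004, 0.073 and 0.148 at 24 h, the last value in each being that of the dimmest set. EIF4A2 differed by 0.093 at 24 h in the probe set used and by -0.149 in the dimmer one. The 2 sets of EIF4H, another helper of eIF4A, gave 0.019 and 0.030 at 4 h, -0.029 and -0.026 at 8 h, and -0.036 and -0.042 at 24 h. Those of EIF1AX, a factor of start codon scanning, gave 0.024 and 0.039, 0.095 and 0.078, and -0.010 and -0.046.

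In 5 of the 6 groups the lowest array of EIF4E was the one with the highest ASNS, which was so for 2.60% of all genes and for no other member. Its limma slope on ASNS was -0.067 (adjusted p = 0.190), and its signal was dim.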
